A study of Mus musculus with 4 samples.

Results

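Interferon-stimulated genes are the genes that cells switch on after an interferon has bound its receptor, and 35 of them were followed here in the livers of mice labelled as controls or as carrying a hepatocyte-specific deletion of HuR (HuRhKO). The 35 were given as a list of symbols covering sensors of foreign RNA and DNA, transcription factors, antiviral effectors, the ISG15 and ubiquitin system and other members, and all 35 were found among the 46603 Ensembl genes of the count table. The study sequenced total liver RNA of 4 mice labelled male, 2 in each group, after 4 weeks on a Western diet with 42% of its energy from fat and 0.1% cholesterol, together with drinking water that held 23.1 g/L fructose and 18.9 g/L glucose (WDSW). Its purpose was to find how the loss of HuR, an RNA-binding protein that regulates mRNAs after transcription, changes the liver under this diet.

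All 4 mice were HuRflox/flox animals on the C57BL/6 J background that had received an adeno-associated virus of serotype 8 (AAV8) by injection. Mice 1 and 2, labelled Control, received AAV8 with GFP, and mice 3 and 4, labelled HuRhKO, received AAV8 with Cre recombinase. Both vectors used the thyroxine-binding globulin promoter, which is active in hepatocytes, so the other cells of the liver keep their HuR. Mice were matched for age, and their age is not given in the labels. The methods of the study name mice of either sex for its animal work as a whole, while the labels give male for each of these 4. Livers without a viral vector or without the diet were not analysed here, so the levels below have no unstimulated reference.

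The totals lay between 13032095 and 19715577 counts a library, with mouse 4 the deepest, and 13001 genes passed the filter on low counts. Elavl1, the gene that encodes HuR, was not lower in the libraries labelled HuRhKO. Its counts were 377 and 347 in the control mice and 541 and 648 in mice 3 and 4, a log2 fold change of 0.41 (SE 0.135, unadjusted p = 0.016, edgeR adjusted p = 0.545). Every direction below is therefore that of the labels. The SE is the standard error of the fit, and adjusted p-values come from the quasi-likelihood test of edgeR with Benjamini-Hochberg adjustment over all genes tested. Hepatocyte markers summed to between 77600 and 88600 CPM (counts scaled to library size) in the 4 libraries. In whole liver, fewer cells of a type and less RNA per cell cannot be told apart.

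Type I and type III interferons act through receptor-bound kinases that activate transcription factors, among them STAT2, which joins IRF9 in a complex that binds the interferon-stimulated response element (ISRE). Interferon gamma acts mainly through the gamma-activated site (GAS). The genes switched on in this way detect viral nucleic acid, block viral entry, translation or release, and amplify or end the signal. In the liver, hepatocytes, Kupffer cells, endothelial cells and lymphocytes can all respond.

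The response element stood in the promoters of many of the members, and it is shown here because it is the site through which many such genes respond to interferon. A promoter of 300 bases, from 250 before to 50 after the start of transcription, was found for 28 of the 35 members in the RefSeq annotation of GRCm38.p6. The ISRE was searched as GAAANNGAAA and the GAS as TTCNNNGAA on both strands, each search apart from the other. The ISRE letters were present for 13 of the 28 members (46.4%), against 3.99% of the 27025 genes in the promoter table. The GAS letters were present for 8 of the 28 (28.6%), against 9.55% of all genes. Both were present for 4 members (14.3%), against 0.614% of all genes, and in 2 members an ISRE match and a GAS match shared bases. A match describes the letters only.

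The stretches below reach 15 bases to either side of the matches, read 5′ to 3′ on the strand of the gene, with the bases of the ISRE matches in capitals. Bst2, which had the highest log2 fold change of the members, carries 2 overlapping matches on chr8:71537572-71537617, and Isg15, a ubiquitin-like modifier, carries 3 on chr4:156200860-156200911. Ifit1 (chr19:34640770-34640828), Ifit3 (chr19:34583358-34583431) and Ifit3b (chr19:34607754-34607827) carry 2 each on the minus strand, and the 74 bases of Ifit3 and Ifit3b are identical. Rsad2 (chr12:26456548-26456587) and Stat2 (chr10:128270261-128270300) carry 1 each. Coordinates are those of GRCm38.p6.
Bst2: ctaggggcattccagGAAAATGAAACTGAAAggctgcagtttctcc
Isg15: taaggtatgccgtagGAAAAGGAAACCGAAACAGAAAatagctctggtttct
Ifit1: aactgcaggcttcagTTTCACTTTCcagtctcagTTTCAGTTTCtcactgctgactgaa
Ifit3: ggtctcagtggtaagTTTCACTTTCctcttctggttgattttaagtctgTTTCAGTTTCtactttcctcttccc
Ifit3b: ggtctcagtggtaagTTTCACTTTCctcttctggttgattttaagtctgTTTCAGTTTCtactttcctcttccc
Rsad2: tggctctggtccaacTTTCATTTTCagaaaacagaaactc
Stat2: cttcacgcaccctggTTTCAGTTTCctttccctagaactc

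All 35 members were expressed in all 4 livers, with between 31 and 7998 counts for a member in a library, and all 35 passed the filter on low counts. Levels are compared between genes per length, as counts per kilobase of exon scaled to the same total in each library (TPM, a length-corrected share of the library). The members together took between 1986 and 2273 TPM of a library. Ifitm3, a membrane protein that blocks the entry of enveloped viruses, stood first with 1129 to 1277 TPM. Bst2 (tetherin), which holds budding virus on the cell surface, followed with 435.8 to 621.6 TPM. Ifi27, a small membrane protein gene, had 105 to 133.8 TPM, Ifi35 had 39.7 to 45.5 TPM, and Trim25, a ubiquitin ligase that acts with the RNA sensor RIG-I, had 27.4 to 33.0 TPM. The ranges of these 5 genes over the 4 mice did not overlap each other or that of any other member.

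From Parp9 and Dtx3l downward the ranges of neighbours in this order overlapped, except between Irf9 and Dhx58 and between Oasl2 and Ifi44. Parp9 had 19.8 to 21.4 TPM and Dtx3l, the ubiquitin ligase that pairs with it, had 19.1 to 20.1 TPM. In all, 15 of the 35 members had a mean above 10 TPM and 1, Ifi44, had a mean below 1 TPM, with 0.583 to 0.974 TPM. Among the strongly interferon-dependent effectors, Rsad2 (viperin) had 1.94 to 2.63 TPM, Ifit2 1.33 to 1.62 TPM and Oasl2 1.14 to 1.54 TPM.

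**Figure D1:**
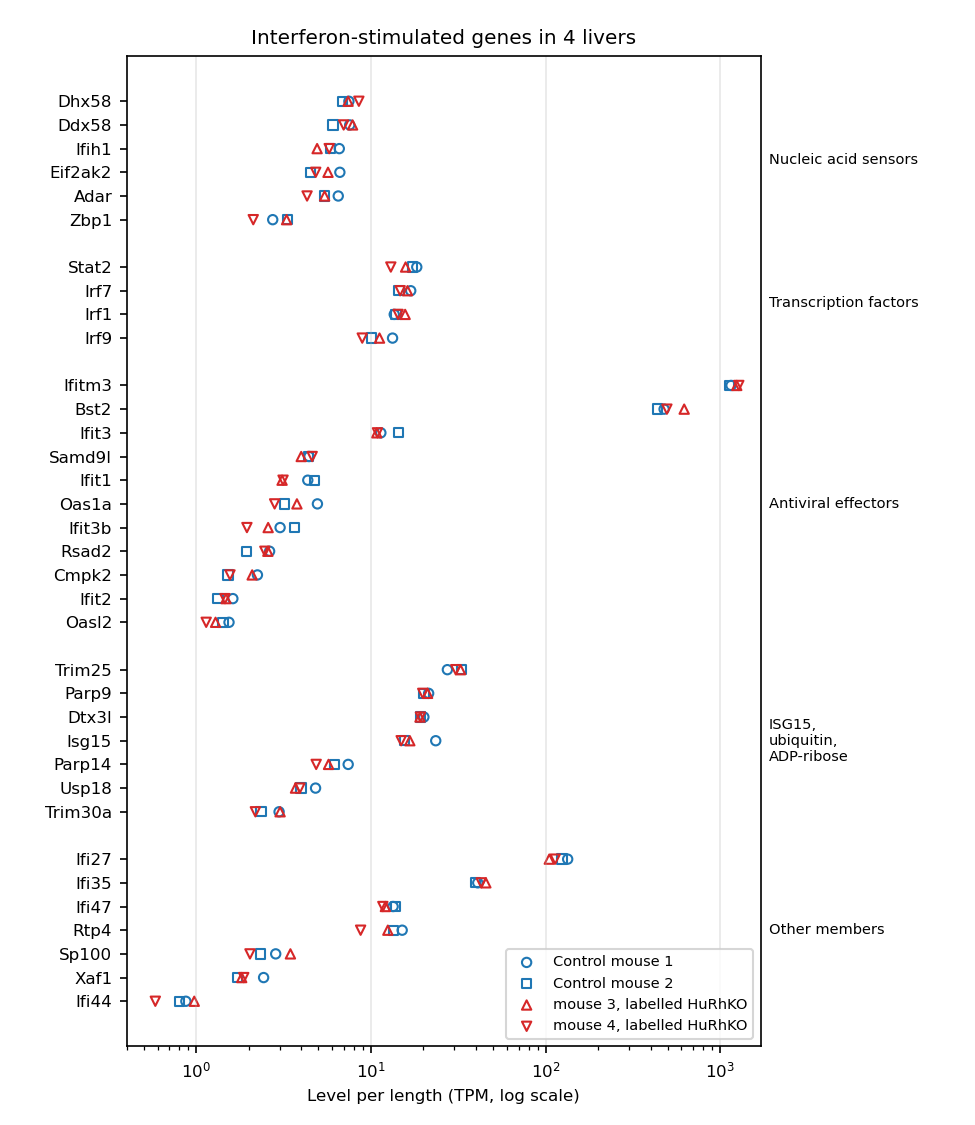
Level of each of the 35 members in the 4 livers, as TPM on a log axis, with a symbol for each mouse and the members grouped by role and ordered by mean level. Ifitm3 (1129 to 1277 TPM) and Bst2 (435.8 to 621.6 TPM) stand far above the rest, and for most members the symbols of the groups lie among each other.

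Comparing the groups, 0 of the 35 members had an adjusted p-value under 0.05 by edgeR's quasi-likelihood test, where 0.0231% of all genes tested did, and 0 did by the DESeq2 Wald test, edgeR's exact test or limma-voom. By unadjusted p under 0.05 edgeR's quasi-likelihood test called 3 of the 35 members, against 7.43% of all genes tested. The DESeq2 Wald test called 0 members and 4.42% of all genes, edgeR's exact test called 0 members and 7.18% of all genes, and limma-voom called 1 member higher and 3 lower and 7.55% of all genes. Of the 3, 1 was higher in the libraries labelled HuRhKO, where the share over all genes was 4.04%, and 2 were lower, where it was 3.39%. The lowest adjusted p of a member was 0.632. A change of at least 1.8-fold was found for 0 of the 35 members and for 3.8% of all genes tested. For its gene lists the study required this change together with a p-value under 0.05. By unadjusted p of edgeR's quasi-likelihood test, 0 members and 277 of the 13001 genes met both.

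The fitted changes lay between 0.681-fold and 1.24-fold of control. Of the 35 members, 12 had a log2 fold change above 0 and 23 below it, with a median of -0.11, where 50.3% of all genes tested lay above 0 and their median was 0.002. Without control mouse 1 the median was -0.05, and 14 members lay above 0. The 95% intervals contained no change for 32 of the 35 members. Their upper ends were at most 1.67-fold for all 35 members and under 1.5-fold for 28, so a rise of 1.8-fold lay outside the interval of each member. The lower ends reached down to 0.404-fold and were above 0.5-fold for 32 members. A fall of 1.8-fold lay inside the intervals of Ifit3b, Ifit1, Oas1a and Ifi44. These intervals are for single genes, with no allowance for their number.

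**Figure D2:**
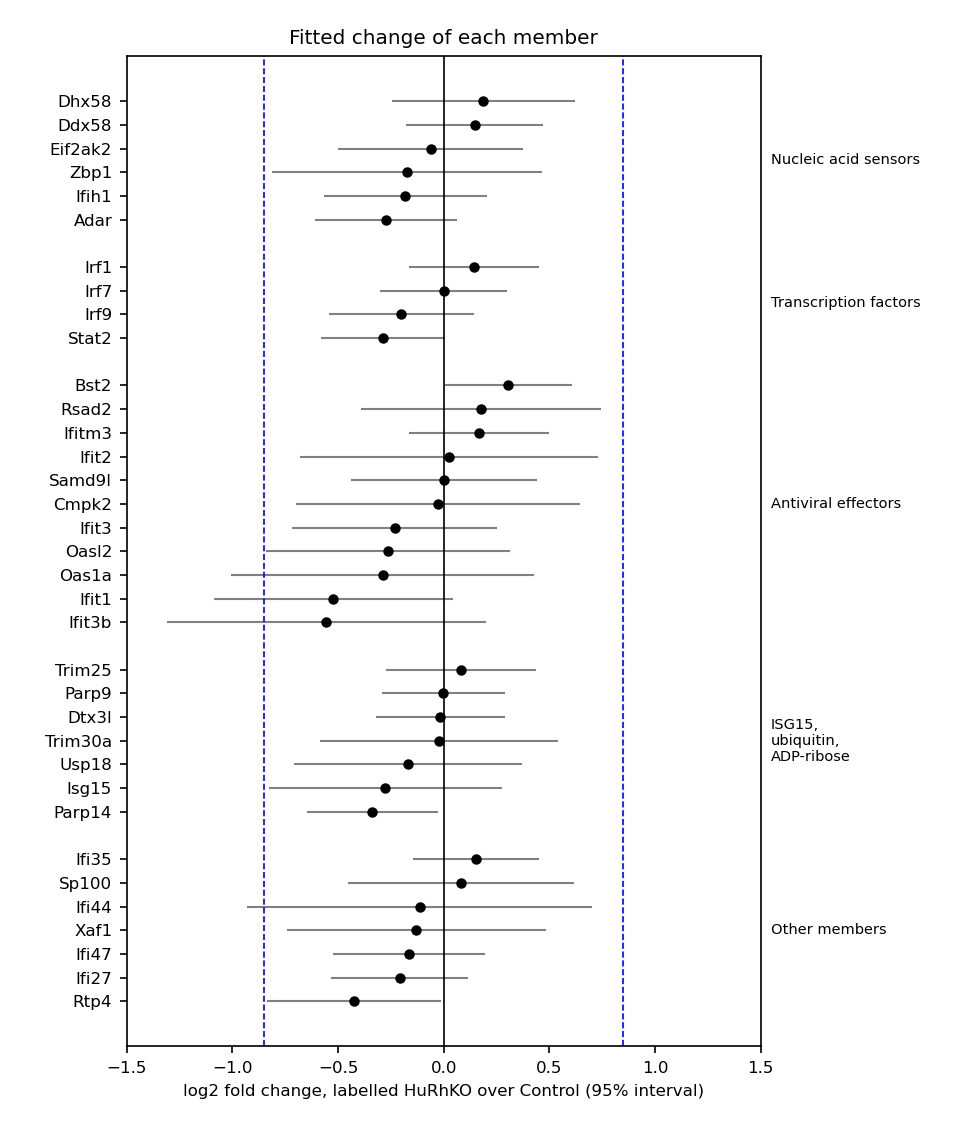
Fitted log2 fold change of each member between the libraries labelled HuRhKO and Control, as points with 95% intervals, grouped by role, with dashed lines at 1.8-fold in either direction. The points lie between -0.55 and 0.31, and no interval reaches the upper dashed line. The intervals of Ifit3b, Ifit1, Oas1a and Ifi44 cross the lower one.

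The groups did not overlap for 15 members. Both libraries labelled HuRhKO were above both control libraries for 5, against 19.3% of all genes tested, and below both for 10, against 18.8%. The size of the group difference was close to that between mice of a group. Over the members, the median absolute log2 ratio was 0.17 between the groups, 0.155 between control mice 2 and 1 and 0.18 between mice 4 and 3. Each group value averages 2 mice, which the ratios of single mice do not. Over all genes tested, the same medians were 0.16, 0.21 and 0.19. Mouse 1 held the highest level of 13 members, mouse 2 of 8, mouse 3 of 4 and mouse 4 of 10, where the shares of all genes tested were 29.1%, 22.0%, 22.3% and 26.7%. The lowest level fell to mice 3 and 4 for 12 members each, to mouse 1 for 4 and to mouse 2 for 7, where the shares of all genes for mice 1 to 4 were 28.3%, 24.1%, 21.4% and 26.2%.

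**Figure D3:**
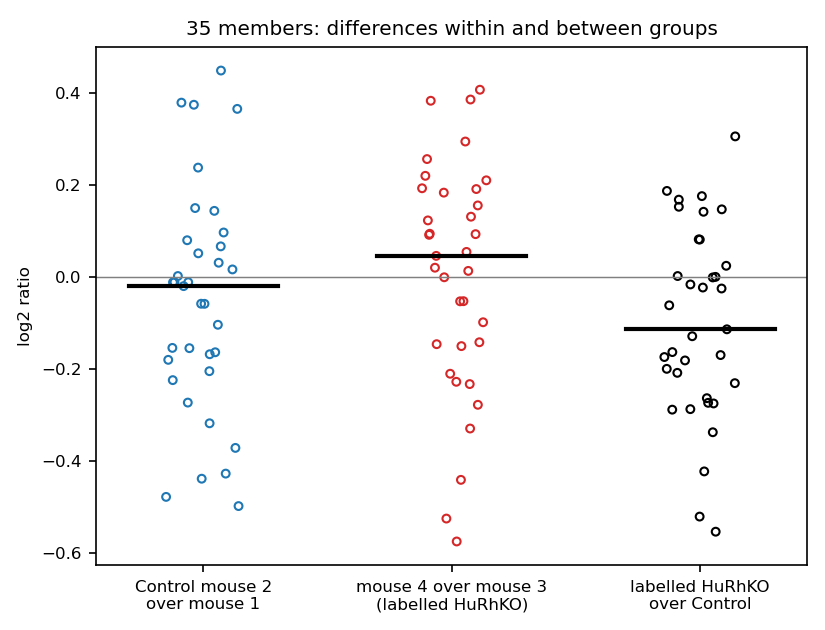
Log2 ratios of the 35 members for control mouse 2 over mouse 1, for mouse 4 over mouse 3 and for the groups, with a point for each member and a bar at the median. The medians are -0.02, 0.05 and -0.11, and the points of the 3 comparisons spread over a like range.

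The sensors detect viral nucleic acid in the cell, and Adar, an enzyme that edits RNA, was grouped with them. Dhx58 (LGP2), a regulator of the RNA helicases RIG-I and MDA5 that lies on chr11:100694884-100704271, had the highest mean level of the 6 sensors per length, though its range overlapped that of Ddx58, which was higher in mice 1 and 3. Its CPM values were 10.7 and 10.6 in the control mice and 10.5 and 13.7 in mice 3 and 4. Mouse 4 alone stood above the others, and mouse 3 stood below both control mice. Its log2 fold change was 0.19 (SE 0.189, edgeR adjusted p = 0.861), and it was -0.02 without mouse 4 and 0.35 without mouse 3. Ddx58, which encodes RIG-I, had 23.2 and 20.2 CPM against 23.9 and 24.2 CPM, a log2 fold change of 0.15. Ifih1, which encodes MDA5, had 23.5 and 22.6 CPM against 17.4 and 23.1 CPM. Here mouse 3 was low and mouse 4 lay between the controls.

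Adar, the enzyme that edits double-stranded RNA so that it is not taken for viral, had 23.0 and 20.7 CPM in the control mice and 19.1 and 17.1 CPM in mice 3 and 4. The groups did not overlap, and the log2 fold change was -0.27 with a 95% interval from -0.61 to 0.06. Its exons share 1365 bases with Chrnb2 on the opposite strand. Eif2ak2 (PKR), the kinase that stops translation on sensing double-stranded RNA, and Zbp1, a sensor of left-handed nucleic acid, had overlapping groups. Their log2 fold changes were -0.06 and -0.17. With a mouse left out, Eif2ak2 ranged from -0.265 to 0.164 and Zbp1 from -0.427 to 0.0452. Of the 6 genes of the sensor group, Adar included, 2 were above 0 and 4 below it, and 0 had an unadjusted p under 0.05.

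The transcription factors carry the signal to the genes. Stat2, which carries the signal of type I interferon, lies on chr10:128270559-128292849 and had 47.3 and 48.4 CPM in the control mice and 40.5 and 37.9 CPM in mice 3 and 4. Both libraries labelled HuRhKO were lower, and the log2 fold change was -0.29 (SE 0.128, 95% interval from -0.58 to 0.005, edgeR adjusted p = 0.67). Its unadjusted p was 0.0531, and it was under 0.05 in 3 of the 12 other settings, with 0.0441 the lowest. Irf9, which joins it in the complex, had 31.2 and 25.8 CPM against 26.0 and 23.6 CPM, and its groups overlapped because control mouse 2 lay just below mouse 3.

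Irf7, the factor that amplifies interferon-alpha production and is itself strongly inducible, had 27.8 and 25.8 CPM in the control mice and 26.4 and 27.2 CPM in mice 3 and 4. Its log2 fold change was 0.0005, with a 95% interval from -0.30 to 0.30. Irf1, which responds most to interferon gamma, had 23.6 and 26.1 CPM against 26.9 and 28.0 CPM, and the groups were apart with a log2 fold change of 0.14. The 4 transcription factors thus had 2 values above 0 and 2 below it.

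The direct antiviral effectors held both the members with the highest levels and those with the largest fitted changes. Bst2, on chr8:71534255-71537456, had 2498 and 2484 counts in the control mice and 3478 and 4130 counts in mice 3 and 4. After scaling, these were 188 and 186 CPM against 243 and 219 CPM, a mean of 187 ± 1.8 CPM (SD, n = 2) in controls and 231 ± 16.5 CPM (SD, n = 2) in mice 3 and 4. Both of those libraries were above both controls. The log2 fold change was 0.31 (SE 0.131, unadjusted p = 0.0469, edgeR adjusted p = 0.66), and the unadjusted p was under 0.05 in 2 of 12 other settings. Leaving out any 1 of the 4 mice took it over 0.05, with log2 fold changes between 0.21 and 0.38.

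Other liver cells express Bst2 too, and their markers were summed beside it. Kupffer cell markers summed to 235 CPM in each control library and to 265 and 255 CPM in mice 3 and 4, with 8 of 10 above 0 and a median log2 fold change of 0.15. Endothelial markers summed to 202 and 187 CPM against 242 and 216 CPM, with 7 of 7 above 0 and a median of 0.24. Of these 17 markers, 0 had an unadjusted p under 0.05 by edgeR, a test that 7.43% of all genes passed. B cell markers summed to 5.27 and 33.1 CPM against 18.8 and 25.0 CPM, so control mouse 1 stood apart. Monocyte markers summed to between 27.0 and 43.0 CPM, T and NK cell markers to between 4.46 and 6.42 CPM and neutrophil markers to between 1.54 and 2.31 CPM, with Ly6g at 0 counts in all 4 libraries. The 7 markers of plasmacytoid dendritic cells summed to 19.5 and 19.7 CPM against 20.9 CPM in each of mice 3 and 4. Most of that sum was Tcf4, and the other 6 markers had at most 10 counts in a library. The part of these cells in the level of Bst2 was not tested.

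Ifitm3, on chr7:141009586-141010770, had 4534 and 4832 counts in the control mice and 5223 and 7998 counts in mice 3 and 4, or 341 and 361 CPM against 364 and 425 CPM. The groups were apart, though mouse 3 was just above control mouse 2 and mouse 4 was set higher, and the log2 fold change was 0.17 (SE 0.144, edgeR adjusted p = 0.838). It was 0.05 without mouse 4 and 0.26 without mouse 3.

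The Ifit genes, among them Ifit1, whose protein binds viral RNA that lacks the host's cap methylation, lie side by side on chromosome 19. Ifit1, on chr19:34640871-34650009, had 67 and 80 counts in the control mice and 51 and 77 counts in mice 3 and 4, or 5.04 and 5.97 CPM against 3.56 and 4.09 CPM. Both libraries labelled HuRhKO were lower once scaled, and the log2 fold change was -0.52 (SE 0.247, unadjusted p = 0.0669, edgeR adjusted p = 0.68), and the unadjusted p was 0.0471 without the filter on low counts.

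Ifit3b, on chr19:34607970-34613401, had 35 and 46 counts against 32 and 36, or 2.63 and 3.43 CPM against 2.23 and 1.91 CPM, the largest fitted change of the 35 members. Its log2 fold change was -0.55 (SE 0.328, 95% interval from -1.31 to 0.20, edgeR adjusted p = 0.748), or -0.35 without control mouse 2. Its neighbour Ifit3 had 8.65 and 11.9 CPM against 8.16 and 9.29 CPM, with overlapping groups and a log2 fold change of -0.23. With a mouse left out, Ifit3 ranged from -0.453 to 0.017. Of the 75-base stretches of Ifit3b, 35.7% also stand in Ifit3, so the split of reads between them is uncertain. Ifit2 had 37 and 33 counts against 36 and 53, and its log2 fold change was 0.02. The neighbouring genes of the locus thus had values from -0.55 to 0.02.

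None of the other effectors had an unadjusted p under 0.05. Rsad2, a radical enzyme that makes a chain-terminating nucleotide, had 4.97 and 3.96 CPM against 4.81 and 5.26 CPM. Cmpk2, its neighbour on chromosome 12, which supplies the nucleotide substrate, had 4.06 and 2.99 CPM against 3.77 and 3.19 CPM. For both, control mouse 1 lay above mouse 2 and the groups overlapped. The synthetases of 2′-5′ oligoadenylate, which activate the ribonuclease RNase L, were represented by Oas1a, with 54 and 38 counts against 44 and 49. A share of 47.6% of its 75-base stretches also stands in Oas1g, which had 10 and 11 counts in the control mice and 28 and 16 in mice 3 and 4. Oasl2 had 4.29 and 4.26 CPM in the control mice and 3.56 CPM in each of mice 3 and 4, a log2 fold change of -0.26 with a 95% interval from -0.84 to 0.32. The mice of a group differed little, on 51 to 67 counts. Samd9l, a restrictor of poxviruses, had a log2 fold change of 0.002. Of the 11 effectors, 5 were above 0 and 6 below it.

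The ISG15 system attaches a ubiquitin-like protein to other proteins. Isg15 itself had 103 and 74 counts in the control mice and 78 and 104 in mice 3 and 4, or 7.75 and 5.53 CPM against 5.44 and 5.52 CPM. Control mouse 1 stood apart and the other 3 mice were nearly level. Its fitted log2 value was -0.28, and it was -0.02 without control mouse 1. Usp18, the protease that removes ISG15 and also dampens the interferon receptor, had 5.87 and 5.23 CPM against 4.46 and 5.36 CPM, with overlapping groups. Trim25, on chr11:88999376-89020293, had 68.9 and 89.4 CPM in the control mice and 81.0 and 86.5 CPM in mice 3 and 4. Both libraries labelled HuRhKO lay between the control mice, and the log2 fold change was 0.08 (SE 0.154, edgeR adjusted p = 0.932), or -0.11 without control mouse 1, 0.28 without control mouse 2 and 0.03 without mouse 4. Trim30a, a ubiquitin ligase gene of mice, had a log2 fold change of -0.02.

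Parp14, Parp9 and Dtx3l lie together on chromosome 16 and act in ADP-ribosylation and ubiquitination. Parp14, an ADP-ribosyltransferase gene on chr16:35832874-35871544, had 400 and 362 counts in the control mice and 330 and 418 counts in mice 3 and 4, or 30.1 and 27.0 CPM against 23.0 and 22.2 CPM. Its mean was 28.6 ± 2.17 CPM (SD, n = 2) in controls and 22.6 ± 0.587 CPM (SD, n = 2) in the others, and the groups were apart. The log2 fold change was -0.34 (SE 0.135, unadjusted p = 0.0366, edgeR adjusted p = 0.632). The unadjusted p was under 0.05 in 6 of 12 other settings, and it was above 0.05 without mouse 1 (-0.27), mouse 3 (-0.38) or mouse 4 (-0.31).

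The values of the other pair at the locus lay close to control. Parp9 had 45.6 and 46.1 CPM in the control mice and 44.4 and 47.3 CPM in mice 3 and 4. Dtx3l had 50.2 and 52.0 CPM against 47.2 and 53.9 CPM. For both, mouse 3 was lowest and mouse 4 highest, and their log2 fold changes were -0.0007 and -0.02 with 95% intervals within -0.32 and 0.29. They are transcribed in opposite directions, share 458 exon bases, and their counts depend there on whether strand was used. The difference between Parp14 and its neighbours was not tested. Of the 7 genes of the ISG15, ubiquitin and ADP-ribose group, 1 was above 0 and 6 below it.

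Among the other members, Rtp4, a chaperone of receptors that also inhibits viral replication, was the second of the 2 lower genes. It lies on chr16:23520291-23614222 and had 187 and 181 counts in the control mice and 165 and 172 counts in mice 3 and 4, or 14.1 and 13.5 CPM against 11.5 and 9.13 CPM. Its mean was 13.8 ± 0.396 CPM (SD, n = 2) in controls and 10.3 ± 1.68 CPM (SD, n = 2) in the others, with mouse 4 the lowest. The log2 fold change was -0.42 (SE 0.179, unadjusted p = 0.0453, edgeR adjusted p = 0.653). The unadjusted p was under 0.05 in 6 of 12 other settings. It was above 0.05 without mouse 1 (-0.41), mouse 2 (-0.45) or mouse 4, where the log2 fold change shrank to -0.26. Of its 75-base stretches, 12.4% also stand in Gm45338, a transcript on the same strand.

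Ifi27, on chr12:103434211-103440239, had 85.6 and 85.8 CPM in the control mice and 66.5 and 81.7 CPM in mice 3 and 4. The groups were apart, with mouse 3 far below and mouse 4 just below the controls, and the log2 fold change was -0.21 (SE 0.142, edgeR adjusted p = 0.779). It was -0.09 without mouse 3 and -0.36 without mouse 4. Ifi35, a partner of the signalling protein NMI, had 30.9 and 32.3 CPM against 34.0 and 36.3 CPM and a log2 fold change of 0.15. Ifi47, a GTPase of the immunity-related family, had 192 and 215 counts against 186 and 268, and after scaling its groups were just apart with a log2 fold change of -0.16. Of the exon bases of Ifi35, 16.8% overlap Gm11626, a gene on the opposite strand. Xaf1, which acts in cell death, Sp100, a nuclear body protein, and Ifi44 had overlapping groups and log2 fold changes of -0.13, 0.08 and -0.11. Each took either sign when single mice were left out. Of these 7 members, 2 were above 0 and 5 below it.

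Members with ISRE letters in the promoter were compared with those without. Of the 13 with a match, 4 had a log2 fold change above 0 and 9 below it, with a median of -0.18. Of the 15 whose promoter held no match, 7 were above and 8 below, with a median of -0.02. Of the 7 with no promoter in the table, 1 was above and 6 below, with a median of -0.17, and these included both lower genes, Parp14 and Rtp4. Bst2, Ddx58, Ifitm3 and Rsad2 were the 4 members with a match and a positive value, and Ifit1, Ifit3, Ifit3b, Isg15 and Stat2, whose letters are printed above, had negative ones. The difference between these sets was not tested.

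The genes before and around the members were counted from a list of the pathway. Of 21 interferon genes, 19 had 0 counts in all 4 libraries, among them Ifnb1 and every interferon-alpha gene of the list. Ifng had 1 count, in control mouse 2, and Ifnk had 1 count, in control mouse 1. The upper limit for a count of 0 is 3 counts, or 0.152 to 0.23 CPM depending on the library, for counting error only. The receptors were present. Ifnar1 had 32.6 and 32.1 CPM in the control mice and 28.9 and 29.4 CPM in mice 3 and 4, and Ifnar2 had 57.7 and 67.4 CPM against 55.4 and 57.0 CPM. For both, the groups were apart, with log2 fold changes of -0.15 each. Ifngr1 and Ifngr2 had log2 fold changes of 0.27 and 0.12 with overlapping groups. Ifnlr1, the receptor subunit of type III interferon, had 4, 0, 1 and 4 counts in mice 1 to 4.

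Jak1 and Tyk2, the kinases of the type I receptor, had log2 fold changes of -0.02 and -0.09, with overlapping groups.

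Of 12 nucleic acid sensing genes tested out of 14, 5 were above 0 and 7 below it. Mavs, the mitochondrial adaptor of RIG-I and MDA5, had 84.4 and 79.5 CPM in the control mice and 109 and 96.1 CPM in mice 3 and 4, a log2 fold change of 0.32 (SE 0.131, unadjusted p = 0.0388, edgeR adjusted p = 0.633).

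A further list of 46 interferon-stimulated genes that are no members had 44 tested, with 19 above 0 and 25 below it and a median of -0.07. By unadjusted p, 2 of the 44 were under 0.05, both higher, where the shares over all genes were 7.43% in either direction and 4.04% higher. Ifitm2, a neighbour and relative of Ifitm3, had 1588 and 1590 counts in the control mice and 2640 and 3797 counts in mice 3 and 4, a log2 fold change of 0.70 (SE 0.128, unadjusted p = 0.000585, edgeR adjusted p = 0.143). Ifi27l2a had 26 and 25 counts against 41 and 120, with most of its counts in mouse 4 and a log2 fold change of 1.29 (SE 0.415, edgeR adjusted p = 0.53). Ifitm3 and Ifitm2 thus had 0.17 and 0.70, and this difference was not tested. The Mx genes were low. Mx2 had 38 counts in both controls against 17 and 40, a log2 fold change of -0.76 with the groups apart after scaling (adjusted p = 0.697 in edgeR), and Mx1 had 15, 4, 6 and 11 counts in mice 1 to 4.

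**Figure D4:**
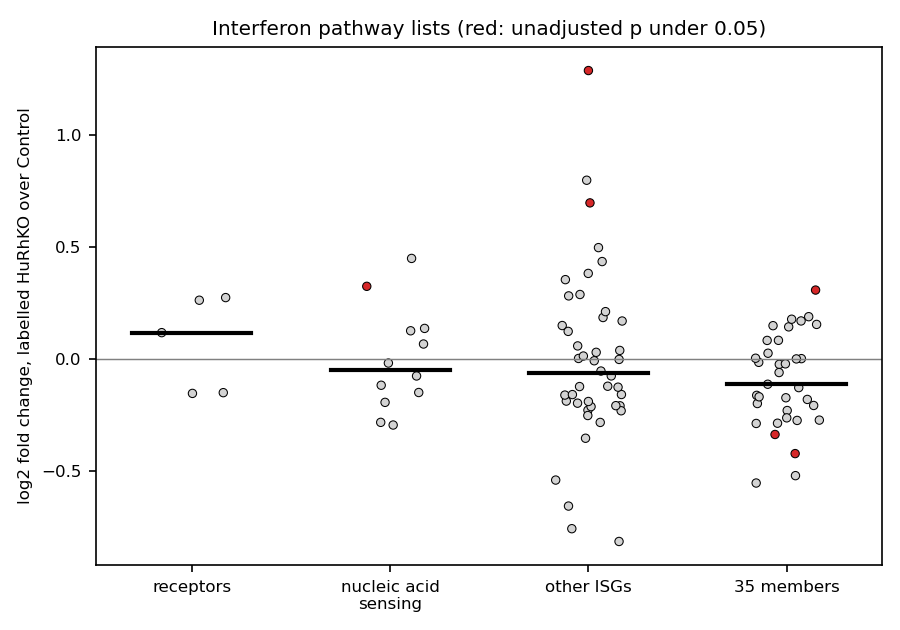
Log2 fold change of every tested gene of 3 pathway lists and of the 35 members, with a point for each gene, a bar at the median and red points for an unadjusted p under 0.05. The medians are 0.12 for receptors, -0.05 for sensing, -0.07 for other interferon-stimulated genes and -0.11 for the members.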

How the data were processed

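Liver RNA of 2 control mice and 2 mice labelled HuRhKO was sequenced. The authors deposited whole-number counts per Ensembl gene, 1 column for each mouse, without normalization. The submitters' processing notes name RSEM and GRCm38, so the counts may be rounded estimates. The aligner and the use of strand are not given in the sources used here. The columns are headed by numbers alone, and each number matched the description of 1 mouse (0 left over). Of 46603 identifiers, 46005 matched a symbol.

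Counts were scaled with TMM factors and tested with edgeR 4.0.16 (R 4.3.3, quasi-likelihood, filter at a minimum of 10 counts and a total of 15), with Benjamini-Hochberg adjustment over 13001 genes. The study names Student's test for comparisons in general. With 2 mice a group an exact permutation test cannot go below p = 0.333, so p-values rest on the spread shared between genes. Standard errors and 95% intervals come from this fit. Log2 ratios between mice used a prior count of 2. TPM divides counts by merged exon length (GENCODE M21) and is not TMM-scaled. The test was checked on simulated data. Alternatives were DESeq2 1.42.0 size factors, upper quartile or no factors, other filters, the DESeq2 Wald test, edgeR's exact test, limma-voom (limma 3.58.1) and leaving out each mouse. Figures were drawn with matplotlib 3.10.9 under python 3.11.15, and tables with pandas 2.3.3.

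Promoters are RefSeq's for GRCm38.p6, and for 21 of 28 members the 40 bases after the start stood in a GENCODE transcript. Members and lists were chosen with earlier results of these data known. Full statistics are given for members with an unadjusted p under 0.05, the 5 with the largest fitted change and the most abundant per length of each role. Other genes named are Elavl1, genes of the reported pathway lists with an unadjusted p under 0.05, and interferons and receptors. Cmpk2, Mx1, Mx2, Oas1g, Tcf4, Jak1 and Tyk2 were named after their values were seen. The list of signalling genes is not reported here as a list.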

Additional observations from a re-analysis of the deposited data

How the results depend on the processing

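The count of members with an adjusted p-value under 0.05 was 0 under all 12 alternatives, and the number above 0 ranged from 10 to 14. The 1 higher member by unadjusted p (Bst2) became 0 with upper quartile factors, with no scaling factor, with no filter, with a minimum of 10 counts in every sample, with the DESeq2 Wald test and with edgeR's exact test, and 0 when any mouse was left out. The 2 lower members became 3 with upper quartile factors, with no filter, with a minimum of 10 counts in every sample and with limma-voom, and 0 with no scaling factor, the DESeq2 Wald test and edgeR's exact test, and between 0 and 1 when a mouse was left out. The median log2 fold change of the members (-0.114) lay between -0.126 and -0.111 in the settings with all mice, and between -0.12 and -0.0545 with a mouse left out. The last was without control mouse 1. With a mouse left out, Dhx58 ranged from -0.0237 (without mouse 4, reversed) to 0.347, and Trim25 from -0.106 (without control mouse 1, reversed) to 0.284. Cmpk2, Dtx3l, Eif2ak2, Ifi44, Ifit2, Ifit3, Irf7, Parp9, Samd9l, Sp100, Trim30a, Xaf1 and Zbp1 also took either sign when single mice were left out. Irf7 and Samd9l had the other sign in 8 of the 12 settings. The remaining members kept their sign in every setting. The cause of these reversals was not tested. With a mouse left out, the lone mouse of its group is assumed to vary like the others. No paired analysis was possible because the mice of the groups share no replicate number. Depth limits the weakest members, which had 31 to 37 counts (Ifi44) and 32 to 46 counts (Ifit3b).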
